A study of Gallus gallus with 6 samples.

Results

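The 6 ileum RNA libraries of the series were divided by their reads from the W chromosome. The 4 libraries with at least 100 reads of Wpkci-7, the W-linked gene also called HINTW, were MP_FOS replicates 1 and 3 and CT replicates 1 and 3. The 2 libraries under 100 reads were MP_FOS replicate 2 and CT replicate 2. All came from Taiping chickens, a breed, labelled male and 2 months old. MP_FOS birds ate a corn-soybean basal diet and drank water carrying 2 mL of probiotics and 1 mL of fructo-oligosaccharide, a fermentable fibre, per litre. CT birds ate the basal diet alone. The groups were chosen by this measured count, which was 2047 and 1846 in MP_FOS replicates 1 and 3 and 2438 and 2804 in CT replicates 1 and 3, against 0 in MP_FOS replicate 2 and 3 in CT replicate 2. The lowest count inside the threshold was thus 1846 and the highest outside it 3.

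Hens carry a Z and a W chromosome, and cocks carry a pair of Z chromosomes and no W. The W holds few genes, and many of them kept a partner copy on the Z. Birds silence no whole Z chromosome in the way that mammals silence an X, so most Z genes are only partly balanced between the sexes, each to its own degree. The 4 libraries with W-linked reads go against their male label, and every result below rests on them, because no contrast is left without them. Each diet had 2 such libraries and 1 without, so diet was held as a covariate, but both libraries without W-linked reads carry replicate number 2. The W-linked split and the replicate number cannot be told apart. The labels do not say that the replicates are separate birds, so p-values speak of the spread among the samples at hand.

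The libraries held 11833015 (MP_FOS replicate 3) to 18106651 (CT replicate 3) estimated counts, and 14071 of the 17623 listed genes were abundant enough to test. Intestinal tissue was checked by cell markers, and 28 of 28 absorptive enterocyte genes passed the filter, among them SI, the sucrase-isomaltase of the brush border. This check does not tell ileum from other parts of the intestine. Of 17 pancreatic genes only 2 passed, and 7 of the 17 had a count of 0 in all 6 libraries. Levels are CPM, counts as parts of the library total after scaling by TMM, a trimmed-mean factor. Fold changes are log2 of libraries with over libraries without W-linked reads from edgeR's quasi-likelihood test, with a standard error (SE), and p-values were adjusted over all 14071 genes by Benjamini and Hochberg (BH).

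W chromosome genes are described without a test, since they mark the groups. W-linked genes other than NEDD4L took 0.104% to 0.109% of the counts in the 4 libraries with W-linked reads, against 0.0004% in MP_FOS replicate 2 and 0.0005% in CT replicate 2. Of 24 W-linked genes tested, 15 had an on-off pattern, with at most 3 reads in each library without and at least 30 in each library with W-linked reads. A further 18 genes with no W placement had the same pattern. NEDD4L, which codes a ubiquitin ligase and which the reference assembly GRCg7b places on the W, had reads everywhere, at 117 to 142 CPM in the 4 libraries with W-linked reads against 176 and 159 CPM in MP_FOS replicate 2 and CT replicate 2.

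**Figure D1:**
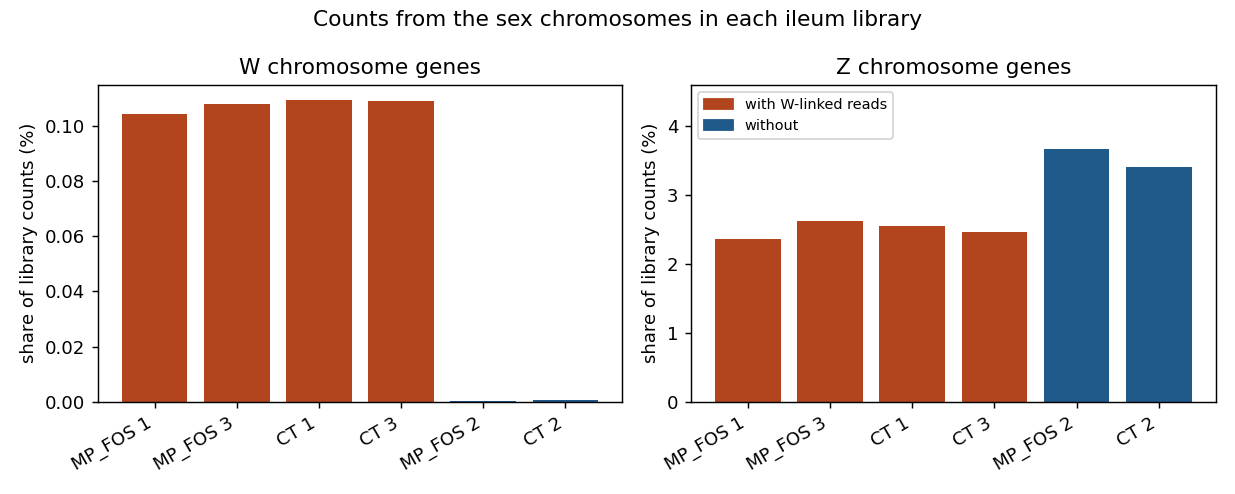
Bars show the share of each library's counts from W-linked genes without NEDD4L (first panel) and from Z-linked genes (second panel), in percent, with no error bars because each bar is 1 library. The 4 libraries with W-linked reads hold 2.37% to 2.63% of their counts on the Z, and the 2 libraries without hold 3.67% and 3.40%.

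Z-linked genes stood lower as a group in the ileum libraries with W-linked reads. The Z took 2.37% and 2.63% of counts in MP_FOS replicates 1 and 3 and 2.55% and 2.47% in CT replicates 1 and 3, against 3.67% in MP_FOS replicate 2 and 3.40% in CT replicate 2. The groups did not overlap. Of 579 Z-linked genes tested, 510 had a negative log2 fold change (88.1%) and 69 a positive one, where 50.3% of all genes tested were negative and 49.7% positive. Their median log2 fold change was -0.49, with quartiles of -0.76 and -0.19, while the median of 11647 autosomal genes was 0.0001, with quartiles of -0.15 and 0.16. A halving of the level would read -1. The Z median was -0.49 within CT and -0.46 within MP_FOS, and it lay between -0.50 and -0.46 when each library was left out in turn.

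The shift was spread over the Z-linked genes rather than carried by a few. A log2 fold change between -0.75 and -0.25 was found in 250 of them (43.2%), between -1.25 and -0.75 in 143 (24.7%), and within 0.25 of 0 in 151 (26.1%). Below -1.25 there were 9 and above 0.25 there were 26. The 4 libraries with W-linked reads lay wholly below the other 2 in 269 Z-linked genes, or 46.5%, where the same held for 5.69% of all genes tested. They lay wholly above in 4 Z-linked genes, or 0.691%, against 5.65% of all genes. Among autosomal genes the libraries lay wholly below in 3.86% and wholly above in 5.04%.

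Single Z-linked genes seldom passed the test. Among all genes 43 passed an adjusted p of 0.05 (0.306%), of which 40 were higher (0.284%) and 3 lower (0.0213%). Of the 43, 19 were W-linked and 16 were on-off genes not placed on the W, from which nothing is read here. The total fell to 26 without MP_FOS replicate 2 and 28 without CT replicate 3, and the lower genes numbered 0 without CT replicate 1 or CT replicate 3 and 5 without MP_FOS replicate 1. Among the Z-linked genes 1 passed and was lower, CLTA. At an unadjusted p under 0.05, 252 Z-linked genes were lower and 4 higher, where the shares over all genes were 3.48% lower and 2.22% higher, or 5.7% in both directions. DESeq2 called 108 Z-linked genes, all lower. Over all genes it called 220 (1.56%), of which 83 were higher (0.59%) and 137 lower (0.974%). Limma-voom called 37 genes (0.263%), and 1 of them was Z-linked.

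**Figure D2:**
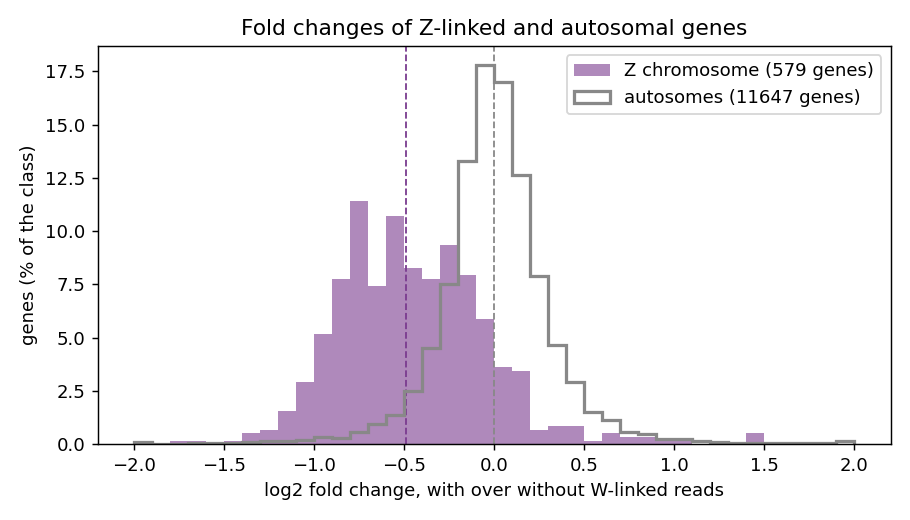
The histogram gives the percent of genes in each class (vertical axis) by log2 fold change with over without W-linked reads (horizontal axis), for 579 Z-linked genes (filled) and 11647 autosomal genes (line), with values beyond 2 drawn in the outermost bins. Dashed lines mark the medians, -0.49 for the Z and 0.0001 for the autosomes.

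CLTA (ENSGALG00000015326), the clathrin light chain A of coated vesicles, fell in the libraries with W-linked reads. It had 108 and 100.5 CPM in MP_FOS replicates 1 and 3 and 88.9 and 91.7 CPM in CT replicates 1 and 3, against 224 CPM in MP_FOS replicate 2 and 202 CPM in CT replicate 2. The groups did not overlap, and the gap between them was far wider than the spread within either. Its log2 fold change was -1.13 ± 0.12 (SE), with an adjusted p of 0.02 (edgeR, BH). The fold change kept its size without any single library, from -1.16 to -1.11, but only the fit without MP_FOS replicate 1 kept an adjusted p under the threshold, at 0.0385. It was 0.201 without MP_FOS replicate 2, 0.0803 without MP_FOS replicate 3, 0.197 without CT replicate 1, 0.16 without CT replicate 2 and 0.199 without CT replicate 3.

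Other Z-linked genes with small p-values did not pass edgeR's test. NOL6 (ENSGALG00000030730), a nucleolar protein of ribosome production, had 18.9, 16.8, 21.2 and 20.3 CPM in MP_FOS 1, MP_FOS 3, CT 1 and CT 3, against 54.2 and 40.3 CPM in MP_FOS 2 and CT 2. The log2 fold change of NOL6 was -1.29 ± 0.18, with an adjusted p of 0.066 (edgeR). The 4 libraries with W-linked reads lay close together and below both others. WDR70 (ENSGALG00000003708), a WD-repeat protein, had 22.9, 22.3, 23.1 and 22.6 CPM in the same 4 libraries, against 45.8 and 40.7 CPM in MP_FOS 2 and CT 2. Its fold change was -0.93 ± 0.13 with an adjusted p of 0.066 (edgeR). RGP1 (ENSGALG00000002394), a partner of RIC1 in vesicle return to the Golgi, had 24.8, 21.1, 26.7 and 22.8 CPM in the 4 libraries with W-linked reads, against 48.3 CPM in each of MP_FOS 2 and CT 2, a fold change of -1.02 ± 0.14. ANKRA2, an ankyrin-repeat protein (-0.84 ± 0.12), and PLAA, a ubiquitin-binding partner of VCP (-0.98 ± 0.14), likewise had groups that did not overlap. RGP1, ANKRA2 and PLAA had adjusted p-values of 0.0724 (edgeR). By DESeq2 the genes of this paragraph passed, with adjusted p-values from 1.09e-05 (NOL6) to 4.17e-05 (RGP1).

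STARD4 and LPL, Z-linked genes from the cholesterol and adipocyte lists, had groups that did not overlap and did not pass edgeR's test. STARD4 (ENSGALG00000000241), a carrier of cholesterol between membranes, had 57.3 and 62.1 CPM in MP_FOS replicates 1 and 3 and 45.8 and 57.9 CPM in CT replicates 1 and 3, against 117 CPM in MP_FOS replicate 2 and 109.9 CPM in CT replicate 2. For STARD4 the log2 fold change was -1.03 ± 0.15 with an adjusted p of 0.0724 in edgeR and 7.06e-06 in DESeq2. LPL (ENSGALG00000015425), the lipase that frees fatty acids from circulating triglyceride, had 25.1, 16.3, 26.1 and 23.4 CPM in MP_FOS 1, MP_FOS 3, CT 1 and CT 3, against 44.7 and 79.4 CPM in MP_FOS 2 and CT 2. Its fold change was -1.40 ± 0.22 with an adjusted p of 0.093 in edgeR and 4.59e-05 in DESeq2. With LPL included, 7 of 9 adipocyte markers had a negative fold change, and their summed level was 377 to 581 CPM in libraries with W-linked reads against 494 and 993 CPM in MP_FOS 2 and CT 2. FABP4, the fatty acid binding protein of fat cells, had 71.9, 43.7, 61.8 and 68.3 CPM in MP_FOS 1, MP_FOS 3, CT 1 and CT 3, against 76.7 and 199 CPM in MP_FOS 2 and CT 2. The part of adipocyte RNA in the LPL value was not tested. In bulk tissue, fewer cells of a type and less RNA per cell cannot be told apart. HMGCS1, an early enzyme of cholesterol synthesis on the Z, had a fold change of -0.51 ± 0.45 and groups that overlapped.

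Ribosomal protein genes divided by chromosome in the fit over all 6 libraries. All 4 on the Z, which code RPL17, RPS6, RPS23 and RPL37, had negative fold changes, with a median of -0.63, and all 61 elsewhere had positive ones, with a median of 0.26. RPL17 (ENSGALG00000036774) had 724 and 570.4 CPM in MP_FOS replicates 1 and 3 and 607 and 609 CPM in CT replicates 1 and 3, against 944 CPM in MP_FOS replicate 2 and 1096 CPM in CT replicate 2, a fold change of -0.70 ± 0.18. RPS6 (ENSGALG00000015082), a protein of the small subunit that S6 kinases phosphorylate, had 1237, 963, 957 and 994 CPM in MP_FOS 1, MP_FOS 3, CT 1 and CT 3, against 1551 and 1782 CPM in MP_FOS 2 and CT 2, a fold change of -0.69 ± 0.19. RPS23 stood at -0.58 ± 0.20 with no overlap, and RPL37 at -0.11 ± 0.20 with overlap. None of the 65 passed the test (edgeR adjusted p from 0.377, for RPL17). DESeq2 called 2 of them, RPL17 (adjusted p of 0.0124) and RPS6 (0.0284). The 61 genes off the Z had no group overlap in 19, all higher, where 5.65% of all genes lay wholly above. Over all 65, the list median was 0.05 within CT, which is also its value without MP_FOS replicate 2, and 0.47 within MP_FOS. Within CT 42 of the 65 were positive and 23 negative, so the division by chromosome did not hold there. Within MP_FOS 62 were positive and 3 negative.

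Of 59 genes in a list of nuclear-coded oxidative phosphorylation subunits, 2 lie on the Z. Both had negative fold changes that did not pass edgeR's test. NDUFS4 (ENSGALG00000028026), a complex I subunit on the Z, had 19.5, 18.02, 17.8 and 14.2 CPM in MP_FOS 1, MP_FOS 3, CT 1 and CT 3, against 37.1 and 32.0 CPM in MP_FOS 2 and CT 2. Its log2 fold change was -0.99 ± 0.15 with an adjusted p of 0.093 in edgeR and 0.000244 in DESeq2. COX7C, a complex IV subunit on the Z, stood at -0.63 ± 0.16, also with no overlap, and had an adjusted p of 0.126 in DESeq2. The 57 listed genes off the Z had a median of 0.0005, with 28 negative and 29 positive. The list is not complete, since ATP5A1Z (-1.20) and ATP5ME (-0.76), both without overlap, lie on the Z outside it. The genes of the mitochondrial genome itself had positive values in 13 of 13, with a median of 0.28, but this was 0.06 within CT and 0.50 within MP_FOS.

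A minority of Z-linked genes stood high in the libraries with W-linked reads. CDO1, the cysteine dioxygenase of taurine synthesis, had 63.5 and 29.6 CPM in MP_FOS replicates 1 and 3 and 35.9 and 41.8 CPM in CT replicates 1 and 3, against 7.85 CPM in MP_FOS replicate 2 and 25.6 CPM in CT replicate 2. CDO1 thus had a log2 fold change of 1.46 ± 0.52. DAB2, an endocytic clathrin adaptor, stood at 0.49 ± 0.20 and VCAN, the matrix proteoglycan versican, at 0.48 ± 0.24, both with no overlap. The adjusted p-values of CDO1, DAB2 and VCAN were 0.74, 0.84 and 0.942 (edgeR). The fourth Z-linked gene with libraries wholly above was SYT4, a synaptic vesicle protein, named after its values were seen. Of the 69 Z-linked genes with a positive value, 44 averaged under 10 CPM.

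A list of sex steroid receptors and targets held 4 Z-linked genes, of which 2 had negative and 2 positive fold changes. GHR, the growth hormone receptor, had 12.6, 14.7, 17.3 and 14.8 CPM in MP_FOS 1, MP_FOS 3, CT 1 and CT 3, against 11.3 and 18.8 CPM in MP_FOS 2 and CT 2, a log2 fold change of 0.01 ± 0.20. PRLR, the prolactin receptor, stood at 0.09 ± 0.23. HSD17B4, which takes part in peroxisomal fat oxidation and steroid metabolism, stood at -0.54 ± 0.28. The fourth, FST, the activin-binding protein follistatin, stood at -0.26 ± 0.31. The groups overlapped in all 4. Among all 22 tested members of the list, 11 were positive and 11 negative, with a median of -0.05, and 0 passed the test (edgeR, 0 also at an unadjusted p under 0.05 and 0 by DESeq2).

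The shift was found along the whole of the Z. With 579 Z-linked genes put in the order of GRCg7b and divided into 12 blocks of 48 or 49 neighbours, every block had a negative median. The lowest was -0.59, and the highest were -0.27, in the block from SUB1 to EMB, and -0.28, in the block from Foxd1 to DENND4C. By level of expression, the median was -0.30 in 28 genes under 1 CPM, -0.36 in 154 genes of 1 to 10 CPM, -0.52 in 329 genes of 10 to 100 CPM and -0.54 in 68 genes over 100 CPM. Of 33 autosomes with at least 20 genes tested, the medians ran from -0.08 (chromosome 34) to 0.03 (chromosome 4), so every Z block lay below every autosome.

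W-linked genes with a named Z partner allow the sum of both copies to be compared. In the deposited FPKM, which are scaled to transcript length, 16 such pairs were found by the genes' descriptions. The Z copy was lower in all 16, with no overlap of groups in 15. Over all 579 Z-linked genes, 46.5% lay wholly lower by CPM, as did 5.69% of all genes tested. The ratio of means of the Z copy ran from 0.444 to 0.844 with a median of 0.599. After the W copy was added, the ratio had a median of 0.843 and ran from 0.666 to 1.85. The summed level overlapped between the groups in 7 pairs, stayed wholly lower in 8 and was wholly higher in 1, MIER3. Of all genes tested, taken singly and by CPM, 5.69% lay wholly lower and 5.65% wholly higher. The W copy stood at a median of 0.415 of the level of its Z partner. Reads of near-identical copies may be shared out between them by the counting, so these values are uncertain, and no test was made.

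SMAD2, which carries signals of TGF-beta and activin, had 7.61, 7.42, 8.58 and 8.82 FPKM from its Z copy in MP_FOS 1, MP_FOS 3, CT 1 and CT 3, against 13.1 and 16.9 FPKM in MP_FOS 2 and CT 2. Its W copy had 7.6, 11.8, 10.8 and 9.37 FPKM in the 4 libraries with W-linked reads and was listed at 0 in both others. The sum averaged 18.005 FPKM with W-linked reads against 15.005 FPKM without, and the groups overlapped. VCP, the ATPase that draws ubiquitinated proteins out of complexes, averaged 57.2 FPKM from the Z copy with W-linked reads against 127 FPKM without. Its sum averaged 105 FPKM with them against 127 FPKM without, and the groups overlapped. The Z copy of VCP had 165 FPKM in MP_FOS 2 and 89.3 FPKM in CT 2. ATP5A1Z, the alpha subunit of ATP synthase, averaged 161 FPKM from the Z copy with W-linked reads against 362 FPKM without. Its sum averaged 242 FPKM with W-linked reads, and the groups did not overlap. The gap was narrow, since the Z copy of ATP5A1Z had 455 FPKM in MP_FOS 2 but 270 FPKM in CT 2. In CT 1 the Z copy had 178 FPKM and the W copy 86.5 FPKM. SPIN1, a reader of histone marks, had the faint W copy of a pair that stayed low, at 3.11 FPKM beside 26.3 FPKM from the Z, against 43.9 FPKM from the Z in libraries without. The plot of pair ratios shows these sums beside the Z copies.

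**Figure D3:**
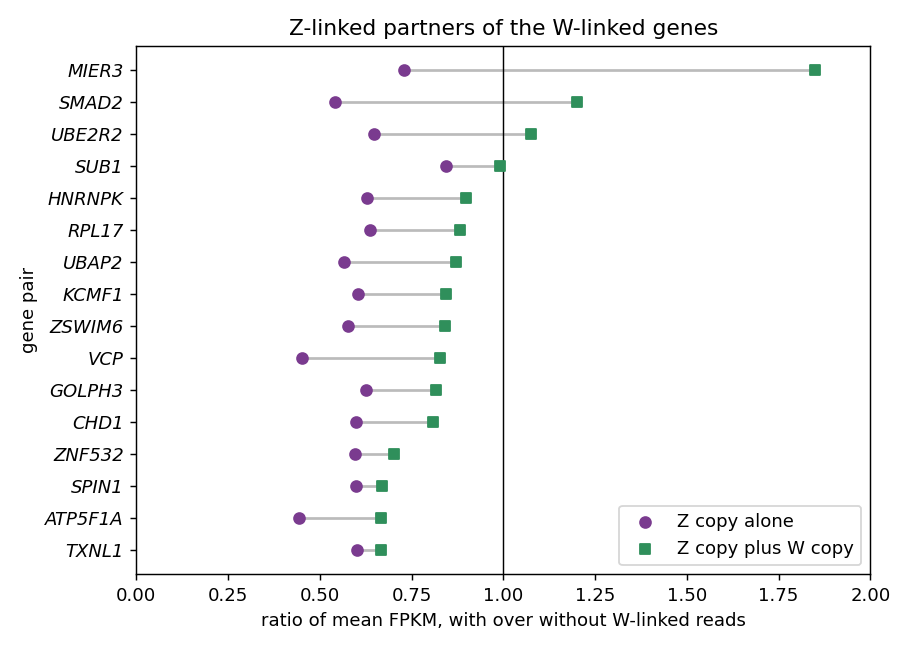
For each of 16 gene pairs (vertical axis), points give the ratio of mean FPKM with over without W-linked reads (horizontal axis) for the Z copy alone (circles) and for the Z and W copies together (squares), over 4 and 2 libraries. Every Z copy lies below 1, and the sums of MIER3, SMAD2 and UBE2R2 lie above it.

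Autosomal genes did not pass the test: 0 of 11647 were called by edgeR at an adjusted p of 0.05, where 0.306% of all genes were. At an unadjusted p under 0.05 (edgeR) there were 351 of 11647, a smaller share than the 802 of all 14071 genes (5.7%). Limma-voom called 0 and DESeq2 called 22 of the 11647. Of all 14071 genes they called 37 (0.263%) and 220 (1.56%), which are larger shares. Without CT replicate 2 the edgeR count was 8, and without MP_FOS replicate 1 it was 1. The lowest unadjusted p among autosomal genes named by the rule was that of KIFAP3 (ENSGALG00000021047, chromosome 8), the cargo-binding subunit of kinesin-2. KIFAP3 had 23.2 and 22.4 CPM in MP_FOS replicates 1 and 3 and 27.6 and 34.5 CPM in CT replicates 1 and 3, against 43.2 CPM in MP_FOS replicate 2 and 65.4 CPM in CT replicate 2. The log2 fold change was -0.998 ± 0.144 with an adjusted p of 0.0758 (edgeR), and DESeq2 gave 6.18e-05. CDHR2 (chromosome 13), a protocadherin that links the tips of brush border microvilli, had 718, 708, 598 and 575 CPM in MP_FOS 1, MP_FOS 3, CT 1 and CT 3, against 1401 and 915 CPM in MP_FOS 2 and CT 2, a fold change of -0.81 ± 0.16 with an adjusted p of 0.178 (edgeR).

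Further autosomal genes had groups that did not overlap and edgeR adjusted p-values above the threshold. The lower ones given here were chosen after their values were seen, and F13A1 was also named by the rule. Lower with W-linked reads were MFAP5, a microfibril protein of elastic matrix (-0.82 ± 0.13), C4A, a complement component (-1.32 ± 0.27), F13A1, the clotting factor that cross-links fibrin (-0.94 ± 0.22), PAPSS2, which makes the sulfate donor of the cell (-0.69 ± 0.14), and SLC6A20, an amino acid transporter (-1.13 ± 0.27). Among genes the rule named as higher, GPX3, a secreted glutathione peroxidase, stood at 0.72 ± 0.16, ITGA4, the integrin alpha 4 of lymphocyte homing, at 0.65 ± 0.15, and ABCA9, a membrane transporter of the ABC family, at 1.01 ± 0.24. Adjusted p-values of these 8 genes ran from 0.0939 (MFAP5) to 0.324 (SLC6A20) in edgeR. In DESeq2 they ran from 0.0001 (MFAP5) to 0.0507 (F13A1), and only F13A1 did not pass there. The choice left out METTL11B (-3.44 ± 0.60), SPON2 (-0.99 ± 0.18) and BG8 (-2.11 ± 0.46), also lower with no overlap. METTL11B and BG8 had larger falls than any of the 8 genes. The adjusted p-values of METTL11B, SPON2 and BG8 were 0.129, 0.142 and 0.216 (edgeR).

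Smooth muscle genes stood high in both diets, although none passed edgeR's test. Of 23 tested markers 22 had a positive fold change and 10 had libraries wholly above, where 5.65% of all genes did, with a median of 0.40, where the median of all genes was -0.0016. TAGLN (ENSGALG00000011902), the actin-binding protein transgelin, had 1579 and 1500.2 CPM in MP_FOS replicates 1 and 3 and 1311 and 1453 CPM in CT replicates 1 and 3, against 933 CPM in MP_FOS replicate 2 and 939 CPM in CT replicate 2. Its log2 fold change was 0.64 ± 0.17 with an adjusted p of 0.46 in edgeR and 0.0015 in DESeq2. CNN1 (ENSGALG00000041266), the calponin of smooth muscle, had 467, 500.2, 349 and 412 CPM in MP_FOS 1, MP_FOS 3, CT 1 and CT 3, against 236 and 267 CPM in MP_FOS 2 and CT 2, a fold change of 0.77 ± 0.19 with adjusted p-values of 0.348 in edgeR and 0.00985 in DESeq2. ACTA1, a striated muscle actin, stood at 0.999 ± 0.186 with no overlap and an adjusted p of 0.142 (edgeR). The list median was 0.48 within CT and 0.30 within MP_FOS. The summed level of the list was 12126 to 13586 CPM in the 4 libraries with W-linked reads, against 9457 and 9397 CPM in MP_FOS replicate 2 and CT replicate 2, so the ranges did not overlap. The part of muscle wall in the sampled tissue was not tested.

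Interferon, cholesterol and cell cycle genes had medians below 0 over the 6 libraries, and in each of these lists MP_FOS replicate 2 was the highest library. In 35 of 37 interferon-stimulated genes, antiviral effectors, the fold change was negative, with a median of -0.53, but the median was -0.98 within MP_FOS and 0.02 within CT. LY6E, an interferon-induced surface protein, had 407 and 656 CPM in MP_FOS replicates 1 and 3 and 299 and 206 CPM in CT replicates 1 and 3, against 1831 CPM in MP_FOS replicate 2 and 278 CPM in CT replicate 2. The groups overlapped because CT replicate 2 lay among the libraries with W-linked reads. The 36 cell cycle genes were all negative within MP_FOS, with a median of -0.99, and 34 of them positive within CT, with a median of 0.32. MCM3, a subunit of the replicative helicase, had 27.2, 33.4, 41.1 and 37.6 CPM in MP_FOS 1, MP_FOS 3, CT 1 and CT 3, against 76.9 and 35.6 CPM in MP_FOS 2 and CT 2. The 21 cholesterol synthesis genes were all negative within MP_FOS, with a median of -0.97, and 17 were positive within CT, with a median of 0.35. Without MP_FOS replicate 2 the 3 list medians were 0.02, 0.32 and 0.35, in the order of interferon, cell cycle and cholesterol genes.

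T and NK cell genes were positive in 18 of 23, with a median of 0.23, and CD8B, a chain of the CD8 co-receptor, stood at 0.67 ± 0.23 with no overlap. GZMA, the granzyme A of cytotoxic cells on the Z, had 175, 660, 108 and 126 CPM in MP_FOS 1, MP_FOS 3, CT 1 and CT 3, against 604 and 309.6 CPM in MP_FOS 2 and CT 2, with overlap. Endothelial genes were positive in 18 of 22, with a median of 0.17, and LYVE1, a lymphatic vessel receptor, stood at 0.61 ± 0.19. Neither passed the test (edgeR adjusted p of 0.705 for CD8B and 0.608 for LYVE1). Absorptive enterocyte genes were negative in 18 of 28, with a median of -0.24, which was -0.39 within CT, where 24 of 28 were negative, and 0.13 within MP_FOS, where 16 were positive and 12 negative. No member of any of the 30 lists passed edgeR's test. Leaving out MP_FOS replicate 2 leaves the contrast within CT alone, and the medians of T and NK cell, endothelial and mitochondrially encoded genes were then 0.06, 0.09 and 0.06. Without CT replicate 2, the median of absorptive enterocyte genes was 0.13.

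**Figure D4:**
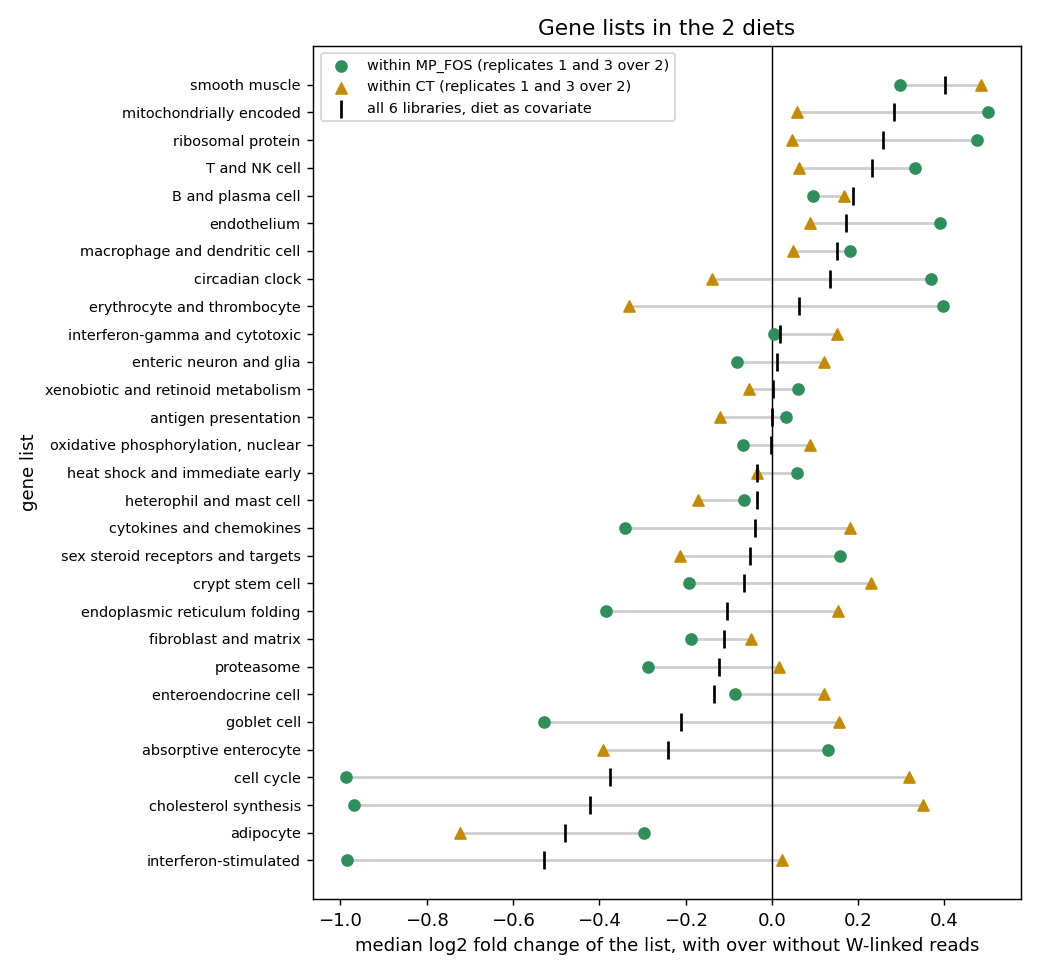
Median log2 fold change with over without W-linked reads (horizontal axis) of 29 gene lists with at least 5 tested genes (vertical axis), within MP_FOS (circles), within CT (triangles) and over all 6 libraries (bars). Smooth muscle lies to the right in both diets (0.30 and 0.48), while cell cycle and cholesterol synthesis lie on opposite sides of 0.

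Outside the W-linked, the on-off and the Z-linked genes, 7 genes passed the test, and none has a symbol or a chromosome in the reference. Of these, 5 were higher and 2 lower with W-linked reads. The 5 higher had 1 to 12.9 reads in the libraries without W-linked reads. The higher of these 2 counts ran from 4.02 to 12.9, above the 3 reads allowed to an on-off gene. These 5 genes passed the low-count filter through the libraries with W-linked reads, so nothing is read from their calls. ENSGALG00000046681, one of the higher, had 35.2 and 56.9 CPM in MP_FOS replicates 1 and 3 and 24.9 and 35.8 CPM in CT replicates 1 and 3, against 0.535 CPM in MP_FOS replicate 2 and 0.29 CPM in CT replicate 2. ENSGALG00000051311, one of the lower, had 0.179, 0.337, 1.501 and 1.49 CPM in MP_FOS 1, MP_FOS 3, CT 1 and CT 3, against 2.85 and 9.45 CPM in MP_FOS 2 and CT 2. The adjusted p of ENSGALG00000051311 was 0.0346 (edgeR). ENSGALG00000048452, the other lower gene, had 0.0597, 0.0842, 1.14 and 1.75 CPM in MP_FOS 1, MP_FOS 3, CT 1 and CT 3. It had 0.535 CPM in MP_FOS 2 and 23.8 CPM in CT 2. The groups thus overlapped, and its adjusted p was 0.0141 (edgeR). The log2 fold change was -4.03 within CT and -2.80 within MP_FOS, where replicates 1, 3 and 2 had 1, 1 and 9 reads. Most reads of ENSGALG00000048452 were in CT replicate 2, at 411, against 19 and 33 in CT replicates 1 and 3. How far the call rests on that library is not reported here. Together with CLTA these genes make 8, a count that was 4 without MP_FOS replicate 2, 3 without CT replicate 1, 3 without CT replicate 3 and 12 without MP_FOS replicate 1.

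Loci with a symbol of gag, pol or env, or with a retroviral description, had mixed values. Such sequences are remnants of integrated viruses, and some loci were taken by symbol alone. Of 22 tested, 15 were positive and 7 negative, with a median of 0.24, and 3 had libraries wholly above. Among these 3, MSTRG.16023 had 0 CPM in MP_FOS replicate 2 and CT replicate 2 and 0.372 to 1.02 CPM in the others. It passed the low-count filter through the libraries with W-linked reads, so nothing is read from its lack of overlap. Among all 1791 genes with no chromosome in the reference, 1047 were positive, the median was 0.08 and 9.16% lay wholly above, and over all genes 5.65% did. None of the 22 loci passed the test (edgeR, 0 called). At an unadjusted p under 0.05 (edgeR) there were 5, all higher. The same held for 2.22% of all genes and for 98 of the 1791 genes with no chromosome. MSTRG.16023 is among the 5, so nothing is read from their number. The lowest p was that of an assembled locus with the symbol gag, described as an uncharacterized protein. It had 16.5 and 6.48 CPM in MP_FOS replicates 1 and 3 and 14.8 and 19.6 CPM in CT replicates 1 and 3. Against these stood 1.01 CPM in MP_FOS replicate 2 and 2.32 CPM in CT replicate 2. Its log2 fold change was 3.16 ± 0.48 with an adjusted p of 0.0864 (edgeR). Such loci can be near-identical copies, and reads may be shared among them.

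A test of the interaction of diet and W-linked split called 1 gene of 14071 (0.00711%), with 1000 at an unadjusted p under 0.05. In each diet the side without W-linked reads is 1 library, so the test sets single libraries against each other and assumes that they vary like the rest. ENSGALG00000047837, which has no symbol, had 43.9 and 35.2 CPM in MP_FOS replicates 1 and 3 and 0 and 0.053 CPM in CT replicates 1 and 3, against 0.297 CPM in MP_FOS replicate 2 and 38.0 CPM in CT replicate 2, with an adjusted p of 0.014 (edgeR). It was low in 3 libraries and high in 3, in opposite order in the 2 diets. This test has 2 residual degrees of freedom, and its count rose to 305 without MP_FOS replicate 3, 19 without MP_FOS replicate 1 and 4 without CT replicate 3. The diet term itself called 0 genes (0% of those tested) in the fit that holds the W-linked split, with 1412 at an unadjusted p under 0.05.

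Libraries were also placed by their 500 most variable genes. With all genes, these were 264 genes with no chromosome in the reference, 185 autosomal, 22 W-linked, 18 on-off and 11 Z-linked genes. The split below thus restates in part how the groups were chosen. In that set, the first principal component held 42.8% of the variance and gave -27.8 and -18.3 to MP_FOS replicates 1 and 3 and -17.9 and -23.4 to CT replicates 1 and 3, against 52.3 for MP_FOS replicate 2 and 35.2 for CT replicate 2. With autosomal genes only, it held 44.5% and gave -13.3 and 25.1 to MP_FOS replicates 1 and 3 and -9.09 and -14.6 to CT replicates 1 and 3, against 29.1 for MP_FOS replicate 2 and -17.1 for CT replicate 2. CT replicate 2 thus lay beside the other CT libraries once the sex chromosomes and unplaced genes were left out, and MP_FOS replicates 2 and 3 lay apart from the rest.

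**Figure D5:**
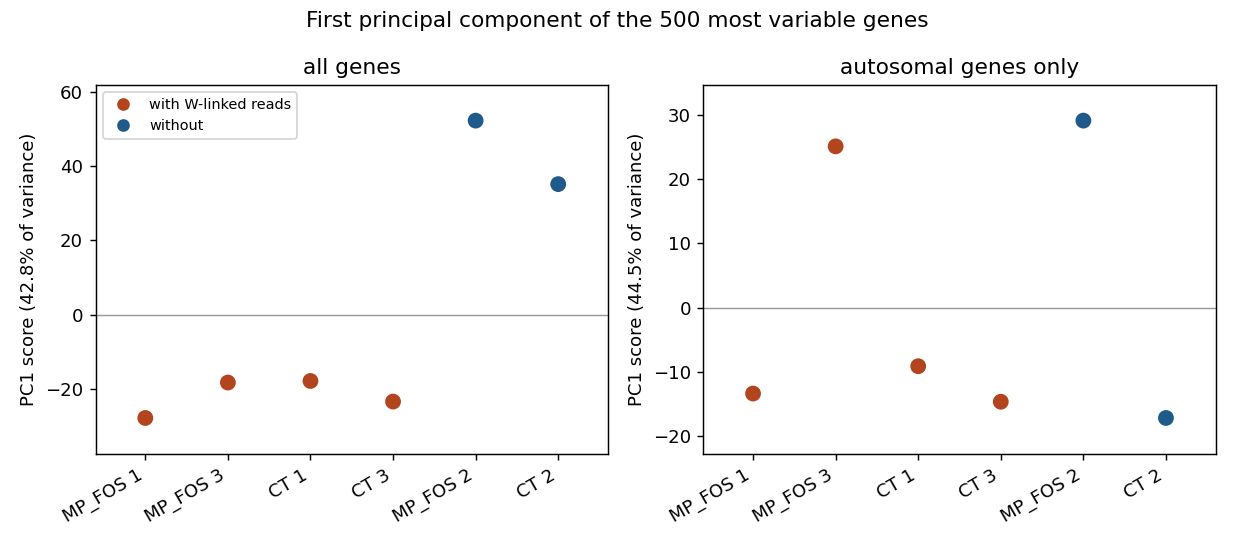
Scores on the first principal component (vertical axis, no unit) of each library (horizontal axis), from the 500 most variable of all genes (first panel) or of autosomal genes (second panel). With all genes, which include the W-linked and on-off genes that mark the groups, the 2 libraries without W-linked reads score 52.3 and 35.2, and they fall on opposite sides of 0, at 29.1 and -17.1, with autosomal genes.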

How the data were processed

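Total RNA of 6 ileum samples was sequenced, 3 per diet. For each sample the deposited table has a column of estimated counts, 7.98% of which are not whole, and a column of FPKM, both computed by the authors. Tools listed in the submitters' processing notes, with no role for any, are DESeq2, StringTie, HISAT2, Bowtie2 and fastp 0.18.0. What counted the reads and on which genome build is not given in the sources used here. A small RNA kit is named in the labels, although genes of all lengths are listed.

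Libraries were grouped by 100 Wpkci-7 counts. Counts were rounded and fitted in R 4.3.3 with edgeR 4.0.16 (filterByExpr, TMM, quasi-likelihood test, two-sided) with diet and the W-linked split as terms. BH adjustment ran over 14071 genes, with a threshold of 0.05. Each SE was the size of the log2 fold change over the root of its F. The common biological coefficient of variation was 0.25. The interaction of diet and split was fitted apart. DESeq2 1.42.0 and limma 3.58.1 (voom, and limma-trend on log2 of FPKM plus 1 or 0.1) were other tools. The code was tested on simulated data.

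Chromosomes came from the RefSeq gene table of GRCg7b, matched for 14208 of 17623 genes (13650 by NCBI gene identifier, 536 by symbol and 22 by synonym). On-off genes have at most 3 reads in each library without and at least 30 in each with W-linked reads.

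The groups, the gene lists and the rule for named genes were chosen with earlier results of these data known. The rule took in each direction up to 12 genes that passed and had a symbol, neither W-linked nor on-off, with groups that do not overlap and at least 5 CPM in the higher group. Where under 5 passed, it was filled to 8 by unadjusted p. It added up to 4 Z-linked genes per direction and up to 4 passing members of each list, or the 2 of smallest p. Genes named for their place in a list, on the Z or in a W and Z pair fall partly outside this rule.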

Additional observations from a re-analysis of the deposited data

Results flagged for a closer look

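In 6 of 106 sets of 4 libraries with W-linked reads, 1 library stood far from the other 3, and about 5% of such sets do so by chance. RPS6 was 1237 CPM in MP_FOS replicate 1, above the 957 to 994 CPM of the other 3. PSMD11, a proteasome subunit, was 121 CPM in MP_FOS replicate 1, above 108 to 110.2 CPM. GZMA was 660 CPM in MP_FOS replicate 3, above 108 to 175 CPM. CPA5, a carboxypeptidase, was 1.26 CPM in MP_FOS replicate 3, below 1.91 to 2.04 CPM. The median of the interferon-stimulated genes, as log2 CPM against each gene's mean, was 0.67 in MP_FOS replicate 3 and -0.51 to -0.40 in the others. The median of macrophage and dendritic cell genes was -0.058 in CT replicate 3, apart from the other 3.

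The contrast of list medians went opposite ways in the 2 diets, in every library, for 9 of the 30 lists. In 2 of these the medians within the diets were at least 1 apart in log2. They were cholesterol synthesis genes (-0.97 in MP_FOS and 0.35 in CT) and cell cycle genes (-0.99 in MP_FOS and 0.32 in CT). These differences between diets were not tested. ENSGALG00000047837 had an adjusted p of 0.014 (edgeR, BH) for the difference between the diets.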

How the results depend on the processing

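No paired analysis was possible because replicate number 2 holds both libraries without W-linked reads, so the number as a block and the split cannot be told apart. The 43 genes that passed became 220 with DESeq2, 27 at an adjusted p of 0.01, 77 at 0.1 and 26 to 46 with 1 library left out; the 40 higher became 83 with DESeq2 and 24 to 41; the 3 lower became 137 with DESeq2, 0 at 0.01, 28 at 0.1, 5 without the diet covariate and 0 to 5. The 8 outside the W-linked and on-off genes became 181 with DESeq2, 3 at 0.01, 39 at 0.1, 14 on log2(FPKM + 0.1) and 3 to 12. The 1 Z-linked call became 108 with DESeq2, 0 at 0.01, 23 at 0.1, 5 without the diet covariate, 2 with the interaction in the fit and 0 to 2. The Z-linked median of -0.49 was -0.44 with upper-quartile factors, -0.36 on log2(FPKM + 1), -0.43 on log2(FPKM + 0.1) and -0.50 to -0.46 with 1 library left out. The 1 gene of the interaction test became 2 in a robust fit and 1 to 305 with 1 library left out, alternatives chosen after seeing the data. The causes were not tested. Of 1216 values of named genes under the alternatives, 1208 kept their sign, 25 came to pass and 5, all of CLTA, ceased to pass. Of 480 list medians, 44 moved by more than the standard deviation of that list's median over the 4 libraries with W-linked reads. That spread takes in both diets, so a list median can change a lot and still not be counted as moved. With 2 libraries on one side, small changes of single genes are beyond the reach of these data.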
